A study of Homo sapiens with 6 samples.

Results

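ATF4 is the transcription factor at the centre of the integrated stress response, and 9 further genes measured with it report on stress of the endoplasmic reticulum (ER). The 10 genes were ATF4, DDIT3, TRIB3, ASNS, CHAC1, SESN2, HSPA5, XBP1, DNAJB9 and HERPUD1, chosen by symbol as known genes of these pathways. They are 10 of the 20522 genes in the library tables, and all 10 had enough counts to be tested. Between si-NEAT1_2 and NC cells, 0 of the 10 genes changed beyond the spread between libraries. Of all 13109 genes tested, 0 passed an adjusted p under 0.05 with a fold change of at least 2. At an unadjusted p under 0.05, 0 of the 10 genes and 24.1% of all genes passed. Of the 10 genes, 7 were a little higher and 3 a little lower, by a log2 fold change between -0.16 and 0.31. Of the 13109 genes, 6675 were higher. A separate deposited table with a single value per group showed other values for the same genes, among them ASNS and CHAC1 lower and HSPA5 higher in the si-NEAT1_2 group.

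The integrated stress response begins when 1 of 4 kinases phosphorylates the translation factor eIF2, which lowers protein synthesis in general and lets ATF4 mRNA be translated. ATF4 then raises genes for amino acid supply, redox balance and, under lasting stress, cell death. The unfolded protein response shares the kinase PERK with it and adds the ER sensors IRE1, which splices XBP1 mRNA, and ATF6, which is cut from the ER membrane; both raise ER chaperones and the machinery that removes misfolded proteins. Because translation controls ATF4 protein and splicing controls XBP1, the mRNA level of either gene reports only part of its activity.

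The cells were K1, a cell line from human papillary thyroid carcinoma. They had been transfected either with a negative control siRNA (NC) or with an siRNA against the long isoform of the noncoding RNA NEAT1 (si-NEAT1_2), and 3 libraries were made per group. Every library came from the same line, and the labels state neither a time after transfection nor whether the libraries came from separate cultures, so p-values measure only the spread between these libraries, which may be technical. NEAT1 was not analysed here, so the knockdown was not checked in these libraries.

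Library totals ranged from 22798631 to 27066025 counts. Of the thyroid markers, TG, PAX8 and FOXE1 reached an FPKM (fragment counts scaled by transcript length and library size) of 1 or more, and TSHR, SLC5A5 and NKX2-1 did not; the summed FPKM of the list was 140.0 to 145.7 in NC and 122 to 180.5 in si-NEAT1_2 libraries. Of 5 epithelial markers, KRT8, KRT18 and EPCAM reached 1, with sums of 1542 to 1753 in NC and 1675 to 2168 in si-NEAT1_2 libraries. Among markers of leukocytes, endothelium and fibroblasts COL1A1 alone reached 1, and the sum of the list was 2.30 to 4.11 in NC and 2.35 to 3.89 in si-NEAT1_2 libraries.

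The promoters of 5 of the 10 genes hold the binding motifs through which these pathways are known to act, and these sites are shown because they hold the letters known for ATF4 or for the ER stress factors. RefSeq promoter windows on GRCh38.p14, from 250 bases before to 50 bases after each transcript start, were found for all 10 genes and searched on both strands. The motifs were the C/EBP-ATF response element TGATGNAA (CARE, bound by ATF4 with a partner), the ER stress response element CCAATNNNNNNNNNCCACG (ERSE, bound by ATF6 with NF-Y), its variant ATTGGNCCACG (ERSE-II) and the unfolded protein response element TGACGTGG (UPRE, bound by XBP1). Capitals mark the motif, and each sequence is written 5′ to 3′ on the strand of its gene.
ASNS CARE: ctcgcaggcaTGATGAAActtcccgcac
CHAC1 CARE, reverse orientation: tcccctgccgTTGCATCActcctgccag
HERPUD1 CARE, reverse orientation: acgcggcgggTTGCATCAgcccgtgccc
HERPUD1 ERSE-II: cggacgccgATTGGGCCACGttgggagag
HSPA5 ERSE: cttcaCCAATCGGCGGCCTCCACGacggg
XBP1 ERSE: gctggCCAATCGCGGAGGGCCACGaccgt

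The ASNS site lies at chr7:97872459-97872486 on the minus strand, and its motif begins at position -68 from the RefSeq start. The CHAC1 site lies at chr15:40953252-40953279 on the plus strand, with its motif at -209. In GENCODE release 29 the ASNS motif falls in a non-coding part of an exon in 3 of 17 transcripts, and the CHAC1 motif does so in 2 of 5. The HERPUD1 sites, at chr16:56931956-56931983 (motif at -176) and chr16:56932016-56932044 (motif at -117) on the plus strand, the HSPA5 site at chr9:125241386-125241414 (minus strand, -66) and the XBP1 site at chr22:28800598-28800626 (minus strand, -52) lie upstream of all annotated transcripts of their gene.

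CARE was found in 3 of the 10 genes and in 4.46% of 27305 genes with a window. ERSE was found in HSPA5 and XBP1, against 0.0916% of genes, and ERSE-II in HERPUD1, against 0.0696%. UPRE was found in 0 of the 10 genes and in 0.927% of all genes. The windows of ATF4, DDIT3, TRIB3, SESN2 and DNAJB9 held none of the 4 motifs, which says only that these letters are absent from these windows.

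Levels were compared between genes as FPKM, which divides by gene length. ATF4 was the most abundant of the 10 with a mean of 343 FPKM over the 6 libraries, followed by HSPA5 at 252, XBP1 at 65.8, HERPUD1 at 40.8, ASNS at 31.5, SESN2 at 16.96, CHAC1 at 14.0, TRIB3 at 13.7, DDIT3 at 10.7 and DNAJB9 at 4.88. The ranges over the 6 libraries did not overlap between ATF4 and HSPA5, HSPA5 and XBP1, XBP1 and HERPUD1, ASNS and SESN2, or DDIT3 and DNAJB9. Those of HERPUD1 and ASNS, SESN2 and CHAC1, CHAC1 and TRIB3, and TRIB3 and DDIT3 overlapped. Within every single library, though, HERPUD1 was above ASNS, SESN2 above CHAC1 and TRIB3 above DDIT3. The order of CHAC1 and TRIB3 changed between libraries.

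**Figure D1:**
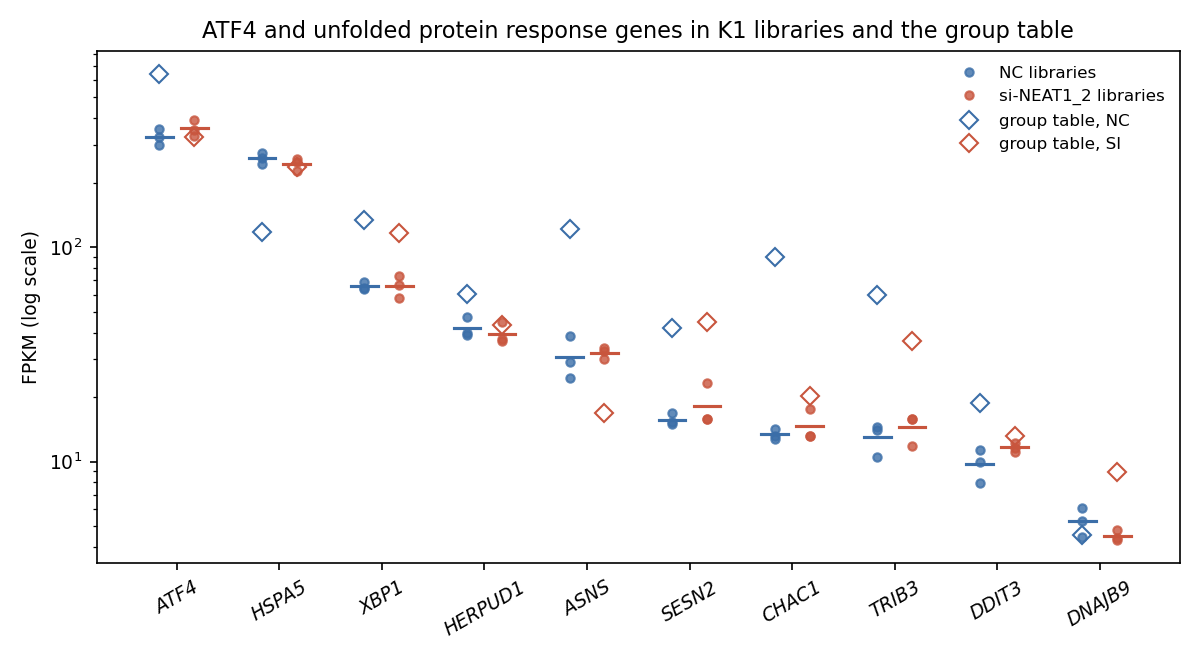
FPKM (log scale) of the 10 genes, ordered by mean level, in the 3 NC libraries (blue points) and the 3 si-NEAT1_2 libraries (red points), with a line at each group mean. Open diamonds are the value of the separate group table for NC (blue) and SI (red); the points of the groups overlap for all 10 genes, and the NC diamonds of ATF4, XBP1, HERPUD1, ASNS, SESN2, CHAC1, TRIB3 and DDIT3 lie above the NC points.

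ATF4 (ENSG00000128272, chr22:39519695-39522685, plus strand, GRCh38) had an FPKM of 356, 300.1 and 327 in NC libraries 1, 2 and 3 and of 330.2, 393 and 352 in si-NEAT1_2 libraries 1, 2 and 3. The highest value was in si-NEAT1_2 library 2 and the lowest in NC library 2, and the groups overlapped. Scaled by TMM (edgeR's trimmed mean normalization), the mean library-scaled counts (CPM) were 459.6 ± 43.8 in NC and 525 ± 73.9 in si-NEAT1_2 cells (SD, n = 3 each). The log2 fold change was 0.19 (SE 0.14, 95% confidence interval -0.12 to 0.50), with an adjusted p of 0.399 in edgeR's quasi-likelihood test (Benjamini-Hochberg over 13109 genes). It was 0.066 without si-NEAT1_2 library 2 and 0.12 without NC library 2. GENCODE lists 4 pseudogenes of ATF4, so its counts may include or lose reads shared with them.

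DDIT3 (ENSG00000175197, chr12:57516588-57521737, minus strand) encodes CHOP, the transcription factor that links lasting ER stress to cell death. Its FPKM was 11.3, 7.97 and 9.95 in NC and 11.1, 11.6 and 12.3 in si-NEAT1_2 libraries. NC libraries 2 and 3 were below all si-NEAT1_2 libraries, while NC library 1 lay between them. The log2 fold change of 0.31 (SE 0.19, interval -0.11 to 0.72) had an edgeR adjusted p of 0.311, and it was 0.18 without NC library 2. Of the exon bases of DDIT3, 27.2% (355 bases) overlap MARS on the opposite strand, and without stated strand counting the reads there cannot be assigned to either gene.

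TRIB3 (ENSG00000101255, chr20:362835-397559, plus strand) encodes a pseudokinase that is induced by ATF4 and CHOP and restrains ATF4. Its FPKM was 14.5, 10.5 and 14.1 in NC and 11.8, 15.8 and 15.8 in si-NEAT1_2 libraries, so the low values fell 1 in each group. In the fit this gave a log2 fold change of 0.17 (SE 0.18, interval -0.24 to 0.57; edgeR adjusted p = 0.575). It was 0.023 without NC library 2, 0.086 without si-NEAT1_2 library 2 or 3, and 0.30 without si-NEAT1_2 library 1.

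ASNS (ENSG00000070669, chr7:97852118-97872542, minus strand) encodes asparagine synthetase and carries the ATF4 motif shown above at its start. Its FPKM was 38.6, 24.6 and 29.1 in NC and 32.7, 33.8 and 30.1 in si-NEAT1_2 libraries. The 3 si-NEAT1_2 values lay inside the range of the NC values, whose coefficient of variation, 23.1%, was the widest of the 10 genes in NC. The mean CPM was 58.1 ± 12.3 in NC and 59.4 ± 6.77 in si-NEAT1_2 cells (SD, n = 3 each), a log2 fold change of 0.030 (SE 0.17, interval -0.34 to 0.40; edgeR adjusted p = 0.920). The sign turned without NC library 2 (-0.10), NC library 3 (-0.0079) or si-NEAT1_2 library 2 (-0.08), and 44.6% of the exon bases of ASNS are shared with AC079781.5, a transcript annotated on the same strand.

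CHAC1 (ENSG00000128965, chr15:40952962-40956519, plus strand) encodes an enzyme that degrades glutathione and is among the most inducible ATF4 targets. Its FPKM was 13.2, 12.8 and 14.2 in NC and 13.1, 13.1 and 17.5 in si-NEAT1_2 libraries, with only si-NEAT1_2 library 3 above the NC range. In CPM, si-NEAT1_2 library 2 was above the NC range as well, at 21.9 against at most 19.9. The log2 fold change was 0.19 (SE 0.16, interval -0.15 to 0.54; edgeR adjusted p = 0.445). It was 0.09 without si-NEAT1_2 library 3 and 0.29 without si-NEAT1_2 library 1.

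SESN2 (ENSG00000130766, chr1:28259527-28282491, plus strand) encodes sestrin 2, a stress protein that lowers mTORC1 activity and is induced by both ATF4 and p53. Its FPKM was 16.9, 14.9 and 15.2 in NC and 15.8, 15.8 and 23.2 in si-NEAT1_2 libraries. As for CHAC1, si-NEAT1_2 library 3 stood above the rest in FPKM and the other si-NEAT1_2 libraries lay inside the NC range. In CPM, si-NEAT1_2 library 2 was above the NC range as well, at 59.0 against at most 57.6. Its log2 fold change was 0.28 (SE 0.16, interval -0.08 to 0.64; edgeR adjusted p = 0.291). Without si-NEAT1_2 library 3 it was 0.09, and without si-NEAT1_2 library 1 it was 0.39, where edgeR's quasi-likelihood test gave an adjusted p of 0.127 and an unadjusted p of 0.0362.

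HSPA5 (ENSG00000044574, chr9:125234853-125241330, minus strand) encodes BiP, the main ER chaperone of the HSP70 family, which also holds the ER stress sensors inactive. Its FPKM was 261, 274 and 244 in NC and 249, 258 and 226 in si-NEAT1_2 libraries. The mean CPM was 993 ± 50.7 in NC and 979 ± 105 in si-NEAT1_2 cells (SD, n = 3 each), a log2 fold change of -0.020 (SE 0.13, interval -0.31 to 0.27; edgeR adjusted p = 0.933). Only si-NEAT1_2 library 3 was below the NC range in FPKM.

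XBP1 (ENSG00000100219, chr22:28794555-28800597, minus strand) encodes the transcription factor made active by IRE1 splicing, which gene counts do not resolve. Its FPKM was 68.6, 64.1 and 64.8 in NC and 57.6, 73.2 and 66.7 in si-NEAT1_2 libraries, so that the lowest and the highest value both came from si-NEAT1_2 cells. A log2 fold change of 0.07 was fitted (SE 0.14, interval -0.24 to 0.38; edgeR adjusted p = 0.768), which was -0.07 without si-NEAT1_2 library 2.

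DNAJB9 (ENSG00000128590, chr7:108569568-108574850, plus strand) encodes ERdj4, an ER co-chaperone of BiP and a known target of spliced XBP1. Its FPKM was 4.45, 6.04 and 5.28 in NC and 4.79, 4.42 and 4.31 in si-NEAT1_2 libraries. NC libraries 2 and 3 were above all si-NEAT1_2 libraries, and NC library 1 lay among them. The log2 fold change was -0.16 (SE 0.17, interval -0.52 to 0.21; edgeR adjusted p = 0.562), and it was -0.059 without NC library 2 and -0.27 without NC library 1.

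HERPUD1 (ENSG00000051108, chr16:56932048-56944863, plus strand) encodes a membrane protein of ER-associated degradation (ERAD), the removal of misfolded proteins from the ER, and alone among the 10 genes it held both a CARE and an ERSE-II site. Its FPKM was 47.4, 38.9 and 39.8 in NC and 36.7, 37.2 and 44.7 in si-NEAT1_2 libraries. Its log2 fold change was -0.04 (SE 0.12, interval -0.32 to 0.23; edgeR adjusted p = 0.840), and the groups overlapped.

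Across the 10 genes, 0 passed an adjusted p under 0.05 with a fold change of at least 2, as did 0 of 13109 genes (0.0%) in edgeR's test, and DESeq2 and limma likewise called 0 of the 10. At an unadjusted p under 0.05, 0 of the 10 genes passed, while 24.1% of all genes tested did, 1469 higher and 1696 lower. All 3 si-NEAT1_2 libraries were above all 3 NC libraries in CPM for 0 of the 10 genes and 15.4% of all genes, and below them for 0 of the 10 and 14.1%. Two-sided exact permutation tests of the mean log2 CPM gave p from 0.2 to 1.0 for the 10 genes, where 0.1 is the smallest p that 3 libraries against 3 allow. The 95% intervals reached at most 1.65-fold higher (DDIT3) and 0.696-fold (DNAJB9), so changes of 2-fold in either direction lay outside the interval of each of the 10 genes.

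The small differences followed the GC content of the transcripts. The 10 transcripts range from 40.4% GC (DNAJB9) to 62.6% (CHAC1), and Spearman's rho between GC content and log2 fold change was 0.709 over the 10 genes and 0.629 over 12581 genes, which share the same 6 libraries and are not independent. When trends with GC content and transcript length were removed per library, the median log2 fold change of the 10 genes went from 0.12 to -0.017. Spearman's rho with GC content was then 0.0071 over all genes but -0.648 over the 10, so the trend among the 10 genes was turned rather than removed. ATF4 went from 0.19 to -0.15 (95% interval -0.31 to 0.013), TRIB3 from 0.17 to -0.15, and CHAC1 from 0.19 to -0.21 (interval -0.50 to 0.074). After this correction 0 of the 10 genes and 16.1% of all genes had an unadjusted p under 0.05 in edgeR's test. The directions of ATF4, TRIB3, ASNS, CHAC1, HSPA5 and DNAJB9 thus depended on the correction, while DDIT3, SESN2 and XBP1 stayed above 0, at 0.058, 0.054 and 0.15, and HERPUD1 below it, at -0.10.

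**Figure D2:**
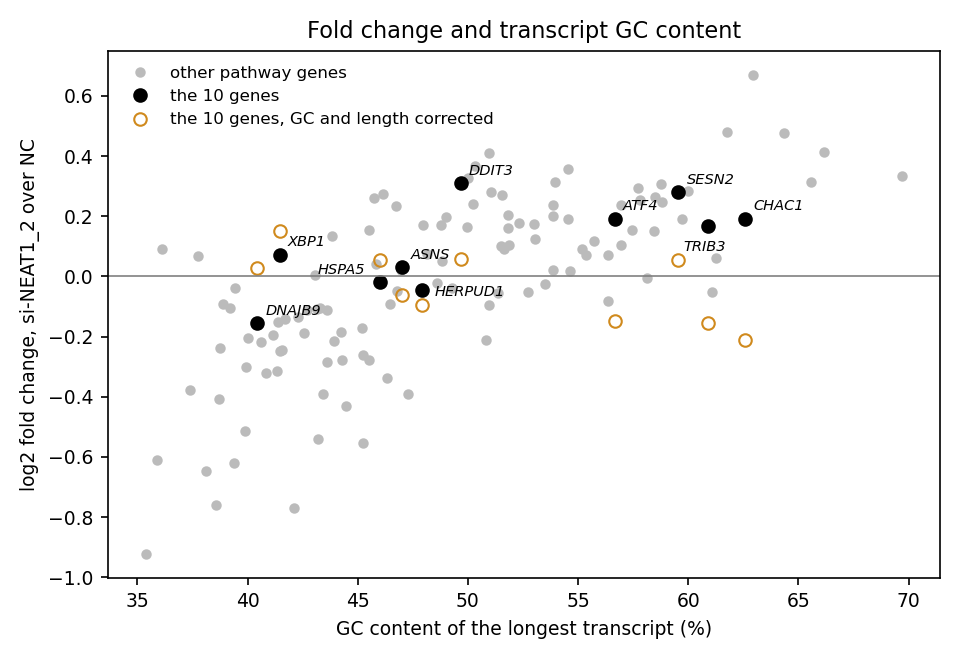
Log2 fold change of si-NEAT1_2 over NC (edgeR, TMM) against the GC content (%) of the longest transcript, for the 10 genes (black, named) and the other pathway genes (grey). Orange circles are the 10 genes after trends with GC content and length were removed per library; before the correction fold changes rise with GC content, and after it ATF4, TRIB3 and CHAC1 lie below 0.

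The medians of the 10 genes in the single libraries overlapped between the groups. Relative to each gene's mean, the median log2 CPM of the 10 was 0.043, -0.18 and -0.057 in NC libraries 1, 2 and 3 and -0.096, 0.18 and 0.074 in si-NEAT1_2 libraries 1, 2 and 3. NC library 1 was thus above si-NEAT1_2 library 1, and the extremes were the libraries numbered 2. In the pattern over the 6 libraries, the genes nearest to ATF4 were CTBP1, CLPTM1L and CUTC, with mean absolute differences of 0.018, 0.018 and 0.021 in centred log2 CPM among 9569 genes. The nearest of the other 9 genes was XBP1, at rank 481 (0.064), and the farthest was DNAJB9, at rank 6442 (0.24).

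The other genes of the pathways were described with 6 lists of 116 genes, of which 0 passed the adjusted p and the fold change of 2 in edgeR's test. Among 20 sensors and regulators, 7 were higher and 13 lower in si-NEAT1_2 libraries (median log2 fold change -0.10), with 2 higher and 4 lower at an unadjusted p under 0.05, a threshold that 24.1% of all genes passed. The 4 eIF2 kinases were at -0.048 (EIF2AK1, HRI), -0.41 (EIF2AK2, PKR), -0.43 (EIF2AK3, PERK) and -0.39 (EIF2AK4, GCN2), with edgeR unadjusted p of 0.689, 0.0804, 0.0663 and 0.0204. Under the GC and length correction they were at 0.027, 0.10, -0.27 and -0.28, so that EIF2AK1 and EIF2AK2 turned sign. The ER sensors ERN1 (IRE1) and ATF6 were at -0.21 and -0.31, with edgeR adjusted p of 0.481 and 0.179, and ATF6 turned to 0.10 under the GC and length correction. The phosphatase subunits that reverse eIF2 phosphorylation were at 0.25 (PPP1R15A, stress-induced; edgeR adjusted p = 0.396) and -0.39 (PPP1R15B, constitutive; adjusted p = 0.190), and at -0.079 and -0.16 under the correction, where PPP1R15A turned sign. The highest and lowest of the list were EIF2B4, a subunit of the eIF2 exchange factor, at 0.41 and MBTPS2, a protease that cuts ATF6, at -0.61 (0.37 and -0.22 with the correction).

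Of 32 further targets of ATF4 and CHOP, 30 were tested, 16 higher and 14 lower (median 0.039), with 4 higher and 4 lower at an unadjusted p under 0.05. The ends of the list were GDF15, a stress-induced secreted factor, at 0.67 (SE 0.16, edgeR adjusted p = 0.170) and SLC7A11, the cystine importer, at -0.92 (SE 0.24, adjusted p = 0.170); they were 0.22 and -0.33 after the GC and length correction. ATF3, a stress-induced transcription factor, was at 0.23 (adjusted p = 0.488). Without si-NEAT1_2 library 1, SLC7A11 (-1.09) and the ERAD mannosidase EDEM3 (-1.11) passed the thresholds, each with an edgeR adjusted p of 0.0493. The share of all genes that passed without this library is not given here, so these genes are not shown to stand out.

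The 12 aminoacyl-tRNA synthetases, which load amino acids onto tRNAs and are largely ATF4 targets, had 5 higher and 7 lower (median -0.023). At an unadjusted p under 0.05 in edgeR's test, 0 were higher and 3 lower. The list ran from WARS at 0.20 to EPRS at -0.54. With the GC and length correction its median was -0.10, WARS was at 0.069 and EPRS at -0.31. CARE occurred in 5 of the 7 synthetase genes with a promoter window (AARS, CARS, IARS, NARS and TARS). It occurred in 7 of 23 ATF4 and CHOP target genes with a window, and in 4.46% of all genes. The 18 ER chaperones and folding enzymes had 12 higher and 6 lower (median 0.11; 0 and 1 at an unadjusted p under 0.05), from SDF2L1 at 0.32 to DNAJC3 at -0.51. With the correction the median of this list turned to -0.026 and SDF2L1 to -0.15, and DNAJC3 was at -0.14. ERSE occurred in 5 of 17 chaperone genes with a window, and in 0.0916% of all genes. Of 20 genes of ERAD and ER translocation, 19 were tested, 10 higher and 9 lower (median 0.0051; 1 and 3), from EDEM2 at 0.36 to EDEM3 at -0.76 (0.042 and -0.31 with the correction). The 14 heat shock genes, of which HSPD1 and HSPE1 are mitochondrial and the others cytosolic, had 9 higher and 5 lower (median 0.091; 1 and 2), from the small heat shock protein gene HSPB1 at 0.48 to HSP90AA1, a cytosolic HSP90, at -0.55. With the correction the median of the heat shock list turned to -0.048 and HSPB1 went to 0.0085, while HSP90AA1 was at -0.48. The median over all 13109 genes was 0.0090.

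**Figure D3:**
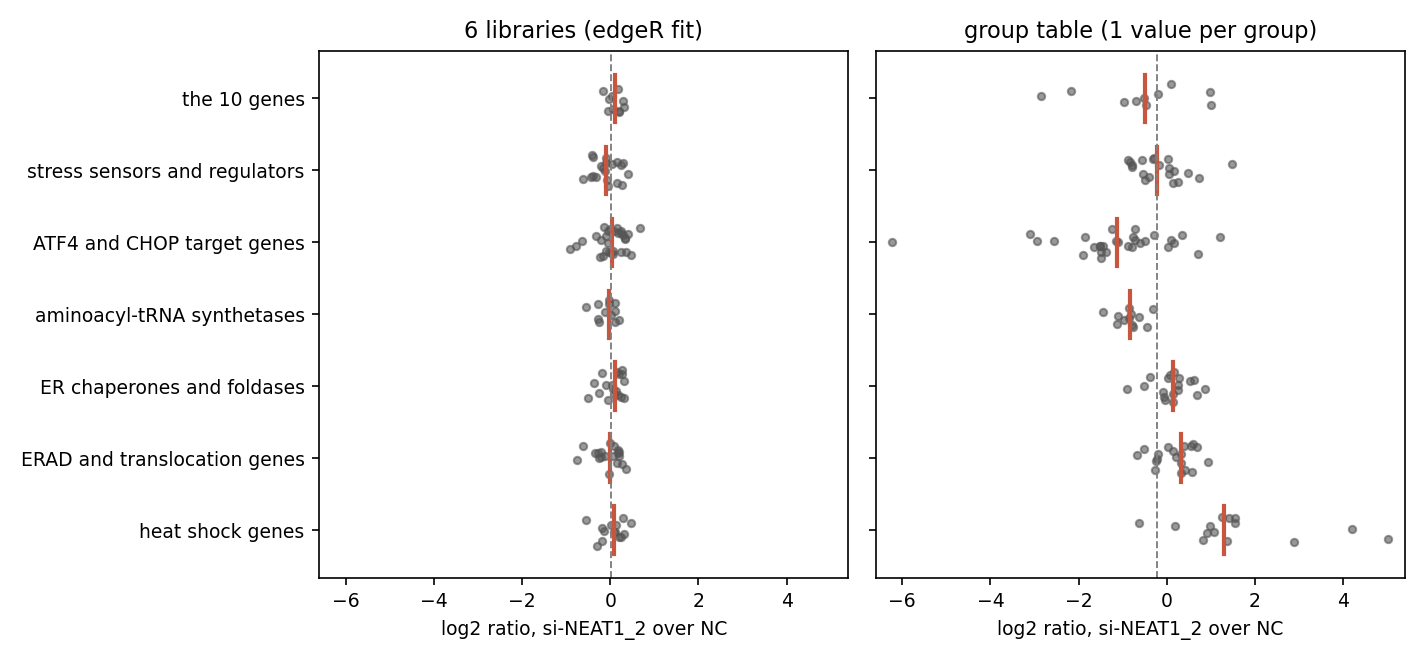
Log2 ratios of si-NEAT1_2 over NC for the 10 genes and 6 pathway lists, each point a gene, in the fit of the 6 libraries (left) and in the group table with 1 value per group (right). Red bars are list medians and the dashed line is the median of all genes; on the left the list medians lie between -0.10 and 0.12, and on the right they run from -1.13 for ATF4 and CHOP targets to 1.304 for heat shock genes.

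The second deposited table gave 1 FPKM value for each group, labelled NC and SI, without replicates, and its ratios have no test. Its values were not the means of the 6 libraries: the NC value lay outside the range of the 3 NC libraries for 9 of the 10 genes and for 86.9% of 11052 genes, and the SI value outside that of the si-NEAT1_2 libraries for 8 of the 10 and 79.7%. How the group values were made is not given in the sources used here, so levels set across the tables are side by side only. The NC FPKM was above the NC libraries for 8 genes and below for HSPA5, and the DNAJB9 value was within them. Expected counts, which are not normalized, differed too. The group NC count was 4067.33 for ASNS, against 1115 to 1960 in the NC libraries. For HSPA5 it was 8195, against 24160 to 27592.

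In this table ATF4 was 643 FPKM in NC and 326 in SI, a log2 ratio of -0.98, against 300.1 to 356 and 330.2 to 393 in the libraries. ASNS was 121 and 16.8 FPKM, 7.202-fold lower in SI, and CHAC1 was 90.5 and 20.2, 4.48-fold lower. TRIB3 was 59.7 and 36.6, DDIT3 18.7 and 13.1, and HERPUD1 60.6 and 43.4, each lower in SI by less than 2-fold. SESN2 (42.1 and 44.8) and XBP1 (134 and 116) differed least.

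The chaperone gene HSPA5 and the co-chaperone gene DNAJB9 were higher in SI. Of the 18 listed ER chaperones and folding enzymes, 12 were higher and 6 lower. HSPA5 was 118 FPKM in NC and 237 in SI, 2.01-fold higher, and DNAJB9 was 4.53 and 8.92, a ratio of 1.97. Thus 7 of the 10 genes were lower and 3 higher in SI, where 64.8% of 11357 genes were lower. ASNS and CHAC1 were at least 2-fold lower, 2 of 10 genes against 14.3% of 11357 genes, and HSPA5 at least 2-fold higher, 1 of 10 against 3.52%. The median log2 ratio was -0.50 over the 10 genes and -0.23 over all genes of the table. For 8 of the 10 genes, all but SESN2 and XBP1, the 95% interval from the 6 libraries excluded the log2 ratio of the group table. This count was not made over all genes, and the intervals leave out the unknown error of the group ratio.

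**Figure D4:**
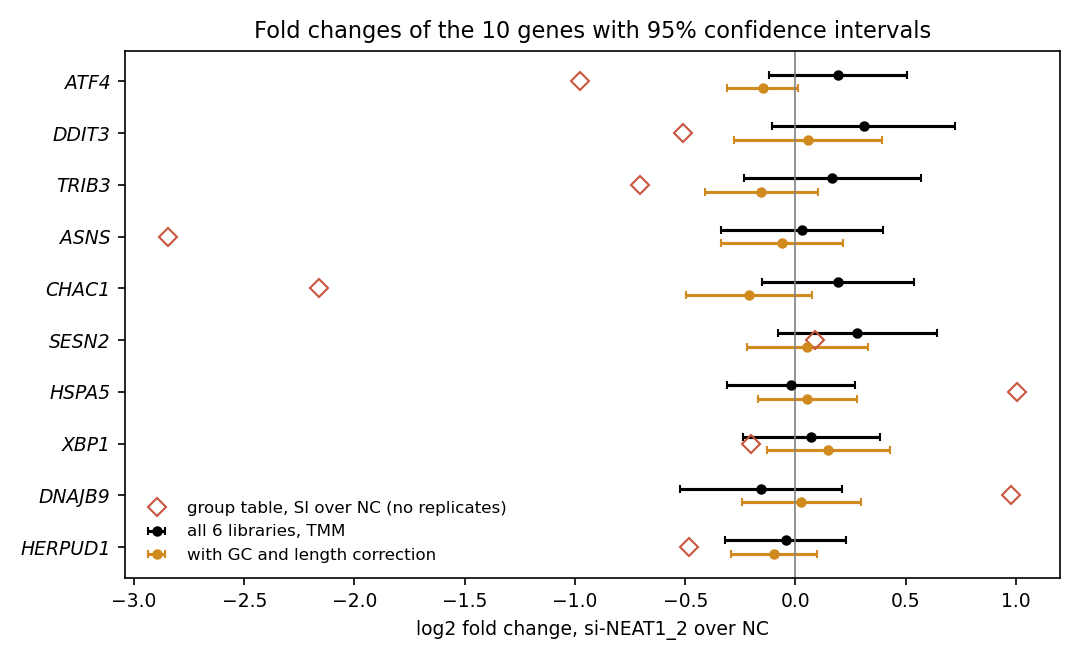
Log2 fold change of si-NEAT1_2 over NC for the 10 genes from the 6 libraries (black, TMM) and after the GC and length correction (orange), with 95% confidence intervals from edgeR (n = 3 per group), beside the ratio in the group table (open diamonds, no replicates). Every interval from the libraries includes 0, while the diamonds run from -2.85 (ASNS) to 1.01 (HSPA5).

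The lists differed more in the group table than in the libraries. Of 30 ATF4 and CHOP targets with a value, 24 were lower in SI and 16 at least 2-fold lower, with a median log2 ratio of -1.13, and all 12 aminoacyl-tRNA synthetases were lower (median -0.84), 3 of them at least 2-fold, beside 64.8% of all genes lower and 14.3% at least 2-fold lower. GDF15 was 31.6 and 14.7 FPKM and SLC7A11 6.94 and 2.45. The sensors had a median of -0.23, the ER chaperones of 0.14 and the ERAD genes of 0.32, and among these 3 lists only PPP1R15A, at 46.2 and 129.9 FPKM, differed by 2-fold or more. The marker sums of this table differed between its columns too, at 341.5 in NC and 162 in SI for thyroid markers and 799 and 506 for epithelial markers, and their part in the ratios was not tested.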

How the data were processed

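Messenger RNA was sequenced from 3 NC and 3 si-NEAT1_2 libraries of K1 cells, grouped by the labels. The study's methods name TopHat2 and RSEM, while the submitters' processing notes list fastp 0.18.0, Bowtie2 2.2.8, HISAT2 and StringTie 1.3.1 with GRCh38; the annotation and the strand setting of the counting are not given in the sources used here. The authors deposited expected counts per gene, not normalized, and FPKM values, scaled by gene length and library size, for each library, and a table with an expected count and an FPKM per group. The number of unmapped sample columns was 0. The deposited group counts total 17678761 (NC) and 19579897 (SI), less than any library.

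Expected counts were rounded, filtered with filterByExpr and tested with edgeR 4.0.16 (TMM, quasi-likelihood test, Benjamini-Hochberg) in R 4.3.3, and the study's thresholds (adjusted p under 0.05, change of 2-fold or more) defined a call. Permutation tests were exact and two-sided. Group table ratios used genes with an FPKM of at least 1 in either column. Alternatives were other normalizations, filters, DESeq2 1.42.0, limma 3.58.1 on log2(FPKM + 1) and log2(FPKM + 0.1), the replicate number as a block, a covariate for the L code in the sample descriptions, splines with 5 degrees of freedom per library in GC content and transcript length (GENCODE release 29), and omission of each library. The tests were checked on simulated counts with 200 genes changed by known folds. These counts held no trend with GC content or transcript length, so the check does not cover such trends.

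The 10 genes and the lists were chosen with earlier results of these data known. Named were the 10 genes, the highest and lowest of each list, the eIF2 kinases, ERN1, ATF6, ATF3, PPP1R15A and PPP1R15B, the 3 genes nearest to ATF4 (mean log2 CPM of 3 or more), and list genes passing the thresholds under an alternative; any other gene was named after its values were seen. PSPH had more than 1 row and was not used, and FGF21 and DERL3 had too few counts to be tested. Genes without a GC content or length in GENCODE received no correction. Some markers of the cell type lists are not reported here.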

Additional observations from a re-analysis of the deposited data

Results flagged for a closer look

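The group table was used in no test, and 3 of the 10 genes differed in it by at least 2-fold between its NC and SI columns. Of 11357 genes, 14.3% were at least 2-fold lower in SI and 3.52% at least 2-fold higher. The ratio of SI over NC was 0.139 for ASNS, 0.223 for CHAC1 and 2.01 for HSPA5, each from 1 value per group. In the 6 libraries the same genes had log2 fold changes of 0.030, 0.19 and -0.020, with 95% intervals that exclude these ratios. The reason for the difference between the files was not tested.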

How the results depend on the processing

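Calls among the 10 genes numbered 0 under all 17 alternatives, with adjusted p between 0.127 and 0.994. DDIT3, SESN2 and HERPUD1 kept their direction under each of them. The GC and length correction gave -0.15 for ATF4, -0.15 for TRIB3, -0.062 for ASNS, -0.21 for CHAC1, 0.054 for HSPA5 and 0.027 for DNAJB9, and a median of -0.017 over the 10 genes in place of 0.12. With the replicate block added to it these values were -0.15, -0.15, -0.048, -0.22, 0.046, 0.029 and -0.0096. The block alone changed no call. The study's methods describe RNA from pairs of NC or si-NEAT1_2 cells, but the labels do not say which libraries form a pair. Same-numbered libraries correlated at -0.28, -0.37 and -0.0080 in their deviations from the group means. Trends with GC content were not removed from these values, so the correlations cannot tell whether the numbers mark pairs. ASNS was -0.036 without TMM, XBP1 was -0.0051 with limma on log2(FPKM + 1) and -0.0052 on log2(FPKM + 0.1), and HSPA5 was 0.010 with the library code. Leaving out each library gave -0.10 to 0.19 for ASNS, -0.12 to 0.046 for HSPA5 and -0.068 to 0.18 for XBP1. Without 1 library at a time, 0 to 1 of the 10 genes had an unadjusted p under 0.05 in edgeR's test and 0 to 2 list genes passed the thresholds. The shares of all genes under these omissions are not given here. With 3 libraries per group, the 95% intervals of the 10 genes include changes of up to 1.65-fold.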

Other observations

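In the group table most heat shock genes were higher in SI. Of 14 heat shock genes, 13 were higher in SI and 9 at least 2-fold, with a median ratio of 2.47, and the mitochondrial HSPD1 was the lower 1. Of 11357 genes in this table, 3992 were higher in SI and 3.52% at least 2-fold higher, with a median ratio of 0.855. Of the ER chaperones, 0 of 18 on the list differed by 2-fold, while HSPA5 and DNAJB9, counted among the 10 genes, had ratios of 2.01 and 1.97. HSPB1 was 90.1 FPKM in NC and 666 in SI, HSPA8, the constitutive cytosolic HSP70, was 419 and 1077, and DNAJB1, an HSP40 co-chaperone, was 51.6 and 151. HSPA1A was 10.6 and 343 and HSPA1B 20.1 and 371, but these genes are nearly identical and reads may be split between them. In the 6 libraries HSPB1, HSPA8 and DNAJB1 had log2 fold changes of 0.48, 0.022 and 0.12 (0.0085, -0.056 and -0.12 with the GC and length correction), and 0 of the 14 genes passed the thresholds in edgeR's test (1 higher and 2 lower at an unadjusted p under 0.05).

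The serine synthesis genes PHGDH and PSAT1, both known ATF4 targets, were 380.1 and 126 FPKM in NC and 44.4 and 16.3 in SI of the group table, and their log2 fold changes in the libraries were 0.18 and -0.13, with edgeR adjusted p of 0.478 and 0.476. The stress gene DDIT4 was 680.4 and 189 FPKM in the group table and had a log2 fold change of -0.0049 in the libraries, and of -0.37 with the GC and length correction (edgeR adjusted p = 0.227). These genes were chosen after their values were seen.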
